A study of Mus musculus with 9 samples.

Results

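The 10 genes followed here belong to the bone marrow niche and its matrix and were compared across 3 kinds of mouse bone marrow: the secreted factors Cxcl12, Kitl and Angpt1, the leptin receptor gene Lepr, the endothelial gene Cdh5, the collagen genes Col1a1 and Col1a2, the matrix protein genes Mgp and Sparc, and the protease inhibitor gene Timp3. They were chosen by symbol, with earlier results of these data known. They are 10 of the 19938 genes that the arrays measured under a name of their own, and each was read by 1 probe set. The marrow came from the femur of C57BL6 mice and was measured on 9 Affymetrix arrays in 3 groups of 3. ERG leukemia arrays held marrow of 3 ERG transgenic mice with a myeloid leukemia, 1 mouse to an array, killed once signs of disease were seen. Wild type lineage-negative arrays held marrow of 9 mice in pools of 3, from which cells bearing mature blood cell markers had been removed with a Miltenyi kit. Wild type whole marrow arrays held undepleted marrow of 3 mice, 1 to an array, and the leukemic marrow is not labelled as depleted. The species and promoter of the ERG transgene, the age and sex of the mice, and any treatment of them are not stated in the sources used here.

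Blood stem cells live beside perivascular stromal cells that carry the leptin receptor and beside the endothelium of marrow sinusoids. These cells secrete CXCL12, which holds stem cells and developing B cells in the marrow, and stem cell factor, the product of Kitl, which keeps stem cells alive. Osteoblasts lay down type I collagen together with proteins that bind it or its mineral, and metalloproteinases and their tissue inhibitors (TIMPs) set how that matrix is turned over. Some of these genes are also used by blood cells themselves, as Angpt1 is by stem and progenitor cells and megakaryocytes.

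Values are the deposited intensities, in arbitrary units on a linear scale, and tests were made on their log2 values. Because probe sets differ in how brightly they bind, an intensity was compared between arrays and not between genes. Over all probe sets the median was 33.4. As a further description of background, chosen after the values were seen, 1027 olfactory receptor genes had a median intensity of 21.6, and their 95th percentile lay between 29.7 and 37.5 on the 9 arrays. Against that 95th percentile, 3 members lay above it on all 3 leukemia arrays (Col1a2, Mgp and Sparc), 5 on all 3 lineage-negative arrays (Angpt1, Col1a1, Col1a2, Sparc and Timp3) and 5 on all 3 whole marrow arrays (Cxcl12, Angpt1, Col1a1, Sparc and Timp3). Kitl and Lepr lay above it on no array. Cdh5 exceeded it on whole marrow array 3 alone. Differences of these 3 genes are therefore small shifts near the dim end of the scale, and no fold is given for them. Where 1 group lay below the median of all probe sets and the other above it, a fold is given as a lower bound, against the dim group's measured mean.

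**Figure D1:**
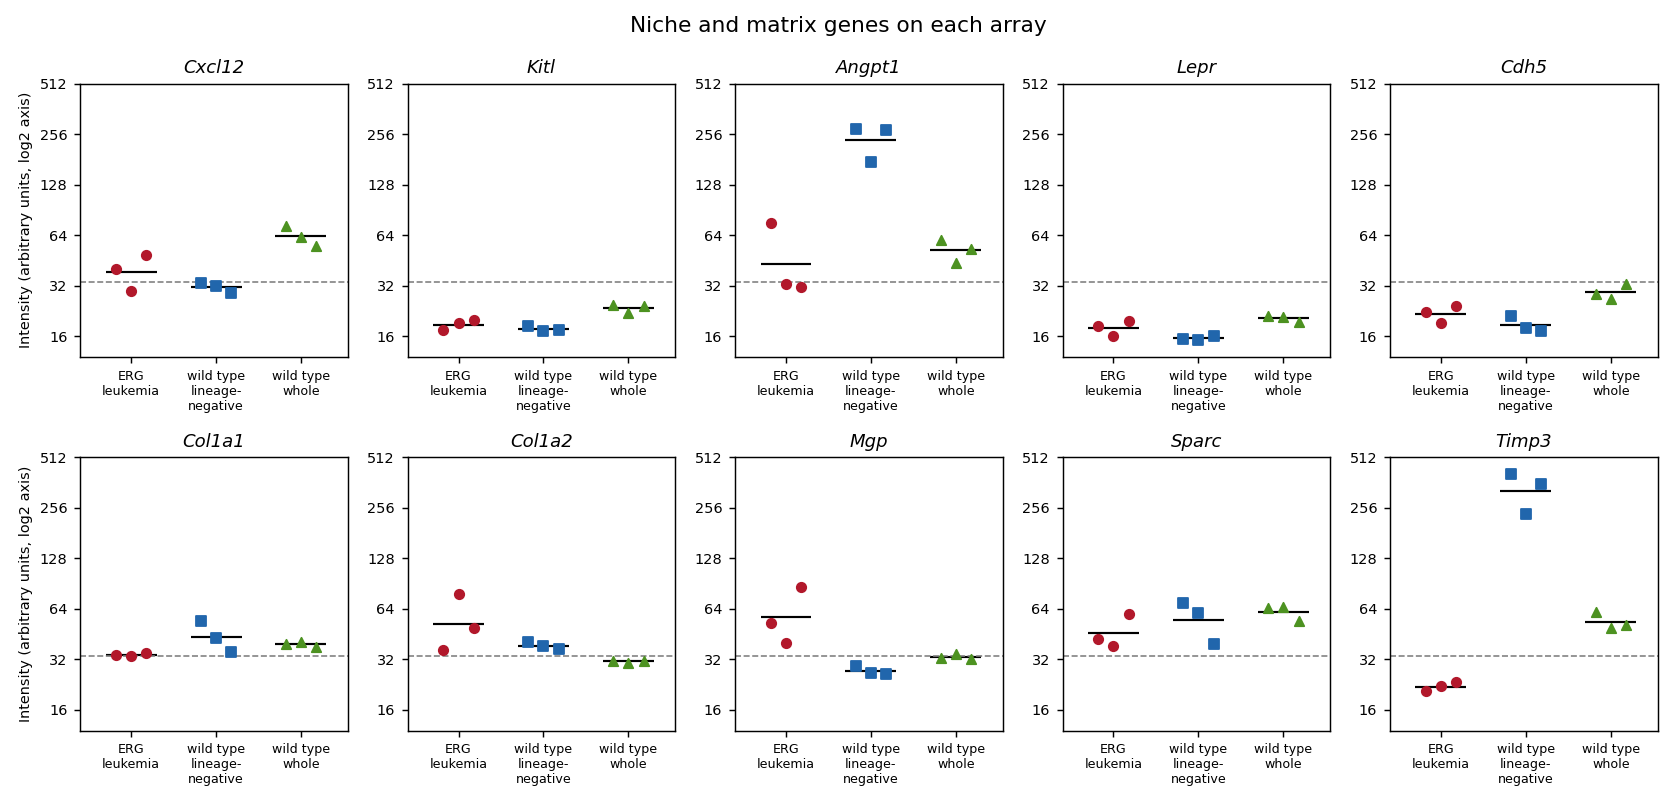
Intensity of the 10 niche and matrix genes on each of the 9 arrays, in arbitrary units on a log2 axis. Points are arrays, short lines are group means of log2 values (n = 3), and the dashed line is the median of all probe sets, 33.4. Timp3 and Angpt1 stand apart in lineage-negative marrow, Cxcl12 is highest on the whole marrow arrays, and Mgp is highest on the leukemia arrays.

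In ERG leukemia marrow, 2 members were higher than in wild type whole marrow (Col1a2 and Mgp) and 4 were lower (Cxcl12, Kitl, Cdh5 and Timp3) by limma at an adjusted p of 0.05. Over all 19938 genes, 14.6% were called higher and 9.93% lower in that comparison. The median log2 difference of the 10 members was -0.30, beside -0.02 over all genes. The arrays of both groups did not overlap for 7 members, where 37.1% of all genes showed no overlap. Against wild type lineage-negative marrow, 1 member was higher in leukemia (Mgp) and 2 were lower (Angpt1 and Timp3), beside 2.95% and 5.74% of all genes, and the arrays of 4 members did not overlap, beside 27.9% of all genes. The members' median difference there was 0.14, beside 0.01 over all genes. Lineage-negative marrow was higher than whole marrow for 2 members (Angpt1 and Timp3) and lower for 4 (Cxcl12, Kitl, Lepr and Cdh5), beside 21.7% and 13.0% of all genes. No overlap was seen there for 8 members and for 50.0% of all genes, and the median differences were -0.22 for the members and -0.03 for all genes. Each group enters 2 of these comparisons, so they are not independent of each other. The members were chosen with earlier results of these data known, so their counts beside the shares of all genes are a description alone. In marrow measured as a whole, fewer cells of a type and less RNA per cell cannot be told apart.

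**Figure D2:**
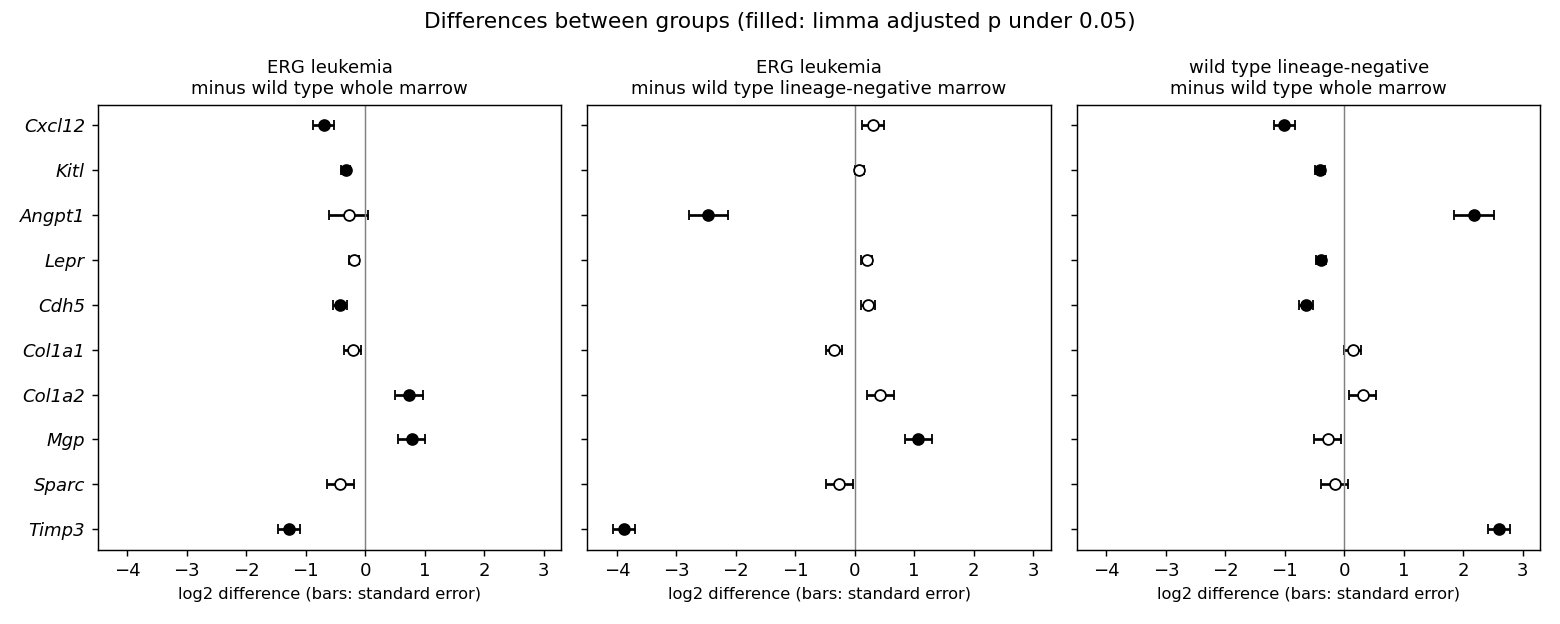
Log2 differences of the 10 genes in the 3 comparisons, in log2 units, with bars of 1 standard error from the limma fit of 9 arrays. Filled points passed an adjusted p of 0.05. Timp3 lies farthest from 0 in both comparisons with lineage-negative marrow, at -3.88 and 2.60.

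Cxcl12 encodes the chemokine CXCL12, and its signal was highest in whole marrow and weaker in the other groups. Its intensity was 40.1, 29.7 and 48.7 in the 3 leukemias, 33.2, 32.0 and 28.7 in the 3 lineage-negative pools, and 72.6, 62.5 and 55.1 in the 3 whole marrows. All whole marrow arrays lay above all others, and leukemia 2 lay among the lineage-negative pools. Cxcl12 was 1.63-fold lower in leukemia than in whole marrow (log2 difference -0.70 ± 0.18 SE, limma adjusted p = 0.0203). It was at least 2.02-fold lower in lineage-negative than in whole marrow (-1.01 ± 0.18, adjusted p = 0.00227). Leukemia and lineage-negative marrow differed by 0.31 ± 0.18, which did not pass the test (adjusted p = 0.367). The call in leukemia against whole marrow was lost when whole marrow 1 (adjusted p = 0.0731) or whole marrow 2 (0.0522) was left out, or when the 6 arrays of both groups were fitted alone (0.0517).

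The 250 bases upstream of the Cxcl12 and Kitl start sites, as RefSeq gives them for GRCm38.p6, are shown because both genes were called lower in leukemia and in lineage-negative marrow than in whole marrow. Capitals mark the GC box letters GGGCGG on either strand (CCGCCC where they read on the other), with overlapping matches merged, and in Kitl also TATAAA.
Cxcl12: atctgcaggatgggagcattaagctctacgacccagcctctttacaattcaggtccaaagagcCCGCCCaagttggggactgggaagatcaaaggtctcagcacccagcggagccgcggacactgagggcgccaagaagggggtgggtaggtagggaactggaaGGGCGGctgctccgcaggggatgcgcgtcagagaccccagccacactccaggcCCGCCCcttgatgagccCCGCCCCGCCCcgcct
Kitl: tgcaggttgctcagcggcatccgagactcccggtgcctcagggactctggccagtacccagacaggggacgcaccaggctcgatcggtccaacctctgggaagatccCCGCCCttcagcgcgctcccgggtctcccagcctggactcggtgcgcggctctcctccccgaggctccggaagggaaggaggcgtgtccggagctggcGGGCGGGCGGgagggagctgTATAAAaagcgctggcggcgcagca
The Cxcl12 stretch lies at chr6:117168285-117168534 on the plus strand and holds 5 GC boxes. The Kitl stretch lies at chr10:100015571-100015820 on the plus strand and holds 3, with TATAAA beginning 25 bases before the start. RefSeq stretches of this kind were at hand for 6 members, with 2 start sites for Lepr, of which only the second held a GC box. Counted by gene, with either Lepr site sufficing, GC boxes occurred in 5 of the 6 members. Counted by promoter, they occurred in 32.7% of 32851 mouse promoters of the same length, so the units differ. TATAAA, read on either strand, occurred in 1 of the 6 and in 12.4% of all. The letters GGAAGT, a longer form of the ETS core GGAA, occurred on either strand in 0 of the 6 and in 19.7% of all. Other forms of that site were not counted, and GGAA itself stands in both stretches shown above. Such matches describe the letters in the window only.

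Kitl, the gene of stem cell factor, varied within a narrow range of 0.51 log2 units over the 9 arrays. It read 17.3, 19.0 and 19.8 in the leukemias, 18.4, 17.2 and 17.3 in the lineage-negative pools and 24.5, 21.8 and 24.0 in the whole marrows. As for Cxcl12, the whole marrow arrays lay above all others, and the other groups overlapped. The log2 difference was -0.33 ± 0.08 for leukemia against whole marrow (limma adjusted p = 0.0194) and -0.41 ± 0.08 for lineage-negative against whole marrow (adjusted p = 0.00422). Leukemia against lineage-negative marrow gave 0.08 ± 0.08 (adjusted p = 0.647). The leukemia call did not pass without whole marrow 1 (adjusted p = 0.0658), whole marrow 3 (0.0594) or leukemia 1 (0.0576), nor under cyclic loess scaling (0.0583) or with both groups fitted alone (0.0523).

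Lepr, whose product marks the perivascular stromal cells that make CXCL12 and stem cell factor, read 18.4, 16.0 and 19.6 in the leukemias, 15.4, 15.2 and 16.1 in the lineage-negative pools and 21.1, 20.9 and 19.4 in the whole marrows. Leukemia arrays overlapped both wild type groups. Lineage-negative marrow was lower than whole marrow by a log2 difference of -0.39 ± 0.09 (limma adjusted p = 0.00773). Leukemia gave -0.19 ± 0.09 against whole marrow (adjusted p = 0.158) and 0.20 ± 0.09 against lineage-negative marrow (adjusted p = 0.219). Across the 9 arrays Lepr followed Cxcl12 with a Pearson r of 0.95 on the log2 scale, and with 0.86 after each group's mean was subtracted, where the points share their groups and arrays. With Kitl the same 2 values were 0.78 and -0.02 for Lepr, and 0.87 and 0.22 for Cxcl12. After subtraction Mgp reached 0.82 with Lepr and 0.84 with Cxcl12, so a high value was not particular to this pair.

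Cdh5 encodes VE-cadherin, the adhesion protein of endothelial junctions. Its intensity was 22.2, 19.2 and 24.0 in the leukemias, 21.2, 17.8 and 17.2 in the lineage-negative pools and 28.6, 26.5 and 32.6 in the whole marrows. Whole marrow again lay above both other groups on every array, and those groups overlapped. The log2 difference was -0.42 ± 0.12 for leukemia against whole marrow (limma adjusted p = 0.0353), -0.64 ± 0.12 for lineage-negative against whole marrow (0.0035) and 0.22 ± 0.12 for leukemia against lineage-negative marrow (0.35). The first of these was lost without whole marrow 1 or 3 (adjusted p = 0.0789 and 0.111), without leukemia 1 or 2 (0.067 and 0.101), under cyclic loess scaling (0.1) and with both groups fitted alone (0.0544).

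Many markers of neutrophils and B cells, and some of macrophages, were also called lower in both other groups than in whole marrow. Erythroid markers went the other way. Of 9 measured, 6 were higher and 0 lower in leukemia than in whole marrow by limma, beside 14.6% and 9.93% of all genes. In lineage-negative against whole marrow, 5 were higher and 0 lower, beside 21.7% and 13.0%. The summed intensity of 10 neutrophil markers was 12706 to 19002 in the leukemias, 596 to 1826 in the lineage-negative pools and 33044 to 39595 in the whole marrows. For 9 B cell markers it was 383 to 568 in the leukemias, 328 to 494 in the pools and 1260 to 5397 in the whole marrows, and all 9 were called lower in leukemia than in whole marrow. For 12 macrophage markers, of which Vcam1 is also a stromal gene, it was 1274 to 3112 in the leukemias, 489 to 825 in the pools and 1902 to 2508 in the whole marrows. By limma, 0 of these 12 were higher and 4 lower in leukemia than in whole marrow (0 and 5 at an unadjusted p under 0.05), although the sums overlapped. Lower ones included Vcam1 and the mannose receptor gene Mrc1 (-1.11 ± 0.19, adjusted p = 0.00375). C1qb read 614.2, 125.7 and 647.0 in the leukemias and 220.1, 196.3 and 162.2 in the whole marrows. C1qa, C1qc and Adgre1 likewise lay above all whole marrows in leukemias 1 and 3 and below them in leukemia 2. The depletion kit removes cells with mature lineage markers, and leukemic marrow was low in B cell and neutrophil markers without that step being labelled. The part of these cells in the levels of Cxcl12, Kitl, Lepr and Cdh5 was not tested.

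Stromal markers themselves gave little signal. Of the 23 stromal markers and secreted factors, all measured and 4 of them members, 13 exceeded the olfactory 95th percentile on no array. Among these were the transcription factor genes Foxc1, at 17.2 to 19.5 over the 9 arrays, and Ebf3, at 17.3 to 22.7, both of which stromal niche cells depend on. By limma, 1 of the 23 was higher and 5 were lower in leukemia than in whole marrow (median log2 difference -0.09), beside 14.6% and 9.93% of all genes. In lineage-negative against whole marrow, 3 were higher and 7 lower (median -0.13), beside 21.7% and 13.0%. Against lineage-negative marrow, 0 were higher and 3 lower in leukemia (median 0.08), beside 2.95% and 5.74%, or 4 and 3 at an unadjusted p under 0.05. Vcam1, an adhesion molecule of stromal cells and marrow macrophages, read 130.9, 141.1 and 87.1 in the leukemias, 74.1, 42.2 and 71.4 in the lineage-negative pools and 406.5, 393.4 and 262.2 in the whole marrows. It was 2.97-fold lower in leukemia than in whole marrow (limma adjusted p = 0.00452) and 5.73-fold lower in lineage-negative than in whole marrow (0.000242). Csf1, which encodes the growth factor of macrophages, was at least 1.89-fold lower in leukemia than in whole marrow (adjusted p = 0.0168, or 0.0589 without whole marrow 1), and at least 2.38-fold lower than in lineage-negative marrow (0.0121). Without whole marrow 1, the stromal genes called lower in leukemia than in whole marrow numbered 3. The 1 higher gene, Tgfbr3, was kept in 5 of 15 alternatives and was lost under cyclic loess, with both groups fitted alone, and without any 1 whole marrow or lineage-negative array or leukemia 2 or 3.

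The endothelial list did not move as 1 block. Of 21 genes, 2 were higher and 1, Cdh5, was lower in leukemia than in whole marrow (median log2 difference -0.06), beside 14.6% and 9.93% of all genes. In leukemia 1 was higher and 5 were lower than in lineage-negative marrow, beside 2.95% and 5.74%. Lineage-negative marrow was higher than whole marrow for 5 and lower for 2, beside 21.7% and 13.0%. Without whole marrow 1 or 3, or with 75th percentile centring, the 2 higher in leukemia than in whole marrow became 1, and without pool 2 the 2 lower in lineage-negative than in whole marrow became 1. Eng, which encodes the TGF-beta co-receptor endoglin and is also used by blood stem and progenitor cells, read 154.1, 199.5 and 185.6 in the leukemias, 486.0, 450.0 and 501.6 in the lineage-negative pools and 120.3, 70.2 and 101.7 in the whole marrows. It was 1.88-fold higher in leukemia than in whole marrow (limma adjusted p = 0.00847) and 2.68-fold lower than in lineage-negative marrow (0.00375). Kdr, the defining VEGF receptor gene of endothelium, lay at 14.8 to 22.8 on all 9 arrays, and 10 of the 21 genes exceeded the olfactory 95th percentile nowhere.

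Angpt1, which encodes angiopoietin-1, the ligand of the TIE2 receptor, was far higher in lineage-negative marrow than elsewhere. It read 75.7, 32.9 and 31.5 in the leukemias, 275.7, 174.0 and 270.9 in the lineage-negative pools, and 60.0, 43.8 and 53.1 in the whole marrows. All 3 pools lay above every other array, and leukemia 1 lay above the whole marrows while leukemias 2 and 3 lay below them. Angpt1 was 5.49-fold lower in leukemia than in lineage-negative marrow (log2 difference -2.46 ± 0.33, limma adjusted p = 0.00452). It was 4.53-fold higher in lineage-negative than in whole marrow (2.18 ± 0.33, adjusted p = 0.00116). The difference of leukemia from whole marrow, -0.28 ± 0.33, did not pass (adjusted p = 0.632). Both calls held under every alternative setting run.

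The receptors of the 3 factors were each read by their own genes. Cxcr4, the CXCL12 receptor, read 670.5, 594.2 and 657.3 in the leukemias, 805.2, 462.5 and 639.5 in the lineage-negative pools and 1055.6, 843.1 and 1111.7 in the whole marrows. Its log2 difference was -0.64 ± 0.19 for leukemia against whole marrow (limma adjusted p = 0.0401, kept in 9 of 15 alternatives) and -0.68 ± 0.19 for lineage-negative against whole marrow (0.0222, kept in 12 of 16). Ligand and receptor were thus both highest on the whole marrow arrays. Kit, the receptor of stem cell factor, read 159.7, 151.2 and 144.7 in the leukemias, 708.3, 565.6 and 696.8 in the lineage-negative pools and 202.5, 167.5 and 204.9 in the whole marrows. Kit was 4.31-fold lower in leukemia than in lineage-negative marrow (adjusted p = 0.000133) and 3.42-fold higher in lineage-negative than in whole marrow (5.17e-05), so it was highest in the pools while its ligand gene Kitl was not. Leukemia against whole marrow gave -0.33 ± 0.12 for Kit (adjusted p = 0.0694). Tek, which encodes TIE2, read 24.8, 76.1 and 25.2 in the leukemias, 36.3, 32.9 and 36.8 in the pools and 19.7, 18.3 and 20.3 in the whole marrows. Leukemia 2 alone was high, and Tek passed the test in no comparison (adjusted p of 0.121 for leukemia against whole marrow, 0.975 for leukemia against lineage-negative marrow and 0.11 for lineage-negative against whole marrow). Of 15 measured receptors for niche factors and matrix, Lepr included, 2 were higher and 3 lower in leukemia than in whole marrow by limma (median log2 difference -0.21). Over all genes, 14.6% were higher and 9.93% lower there. In lineage-negative against whole marrow, 4 were higher and 3 lower (-0.22), beside 21.7% and 13.0%. Against lineage-negative marrow, 0 were higher and 2 lower in leukemia (0.05), beside 2.95% and 5.74%, or 2 and 3 at an unadjusted p under 0.05. Without whole marrow 1, the 3 receptors lower in leukemia than in whole marrow became 1, and the 2 higher ones became 1, as they also did without whole marrow 2 or leukemia 1, while cyclic loess left 0 of them. Without leukemia 2, or with 75th percentile centring, the 3 lower in lineage-negative than in whole marrow became 6. Cd44, which encodes the receptor of the matrix sugar hyaluronan, was lower in leukemia than in whole marrow (-1.28 ± 0.17, adjusted p = 0.00166) and lower in lineage-negative than in whole marrow (-1.41 ± 0.17, 0.000409).

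**Figure D3:**
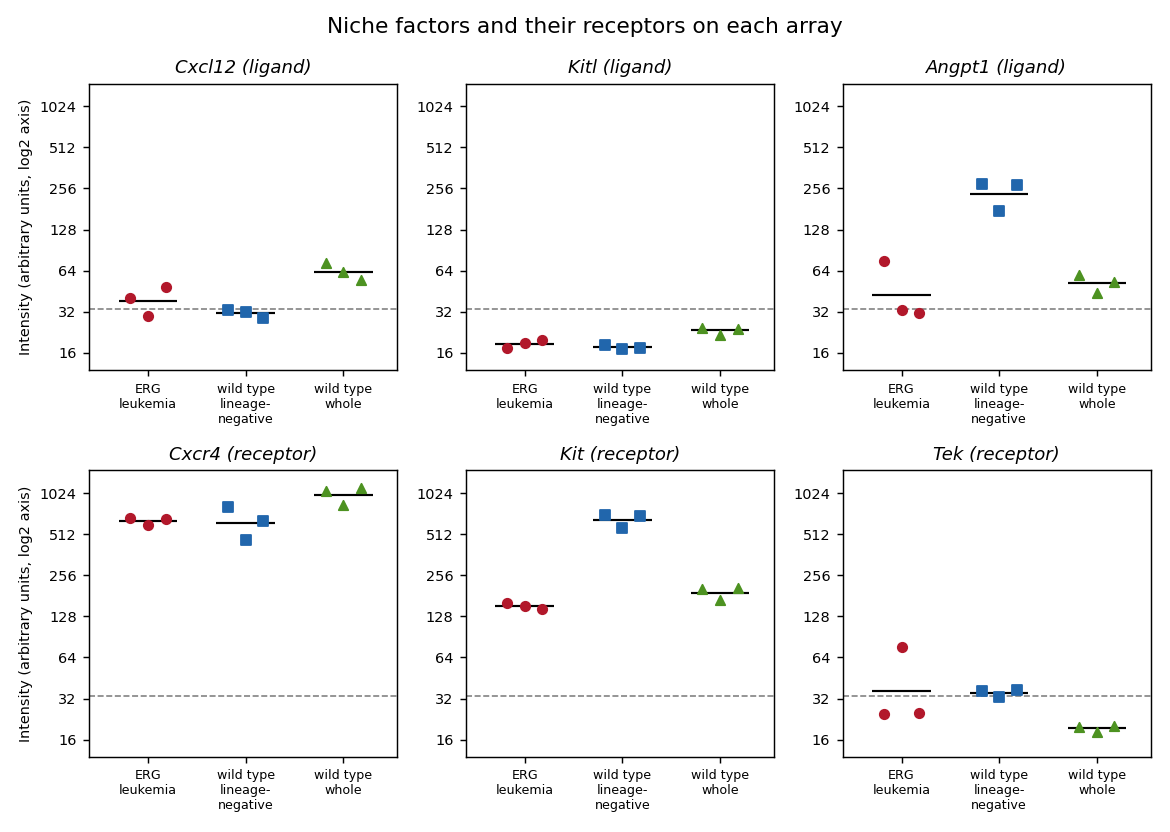
Intensity of the niche factor genes Cxcl12, Kitl and Angpt1 (top) and of the receptor genes Cxcr4, Kit and Tek (bottom) on each array, in arbitrary units on a log2 axis. Lines are group means of log2 values (n = 3) and the dashed line is the median of all probe sets, 33.4. Kit and Angpt1 are highest in the lineage-negative pools, and Tek reaches 76.1 in leukemia 2.

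Type I collagen is built from 2 chains of COL1A1 and 1 of COL1A2, and in leukemia against whole marrow Col1a2 passed the test while Col1a1 did not. Col1a1 read 34.0, 33.7 and 34.7 in the leukemias, 54.4, 42.6 and 35.4 in the lineage-negative pools and 39.7, 40.5 and 38.0 in the whole marrows. Leukemia arrays lay below all wild type arrays, by little, and the difference passed the test against neither whole marrow (-0.21 ± 0.14, limma adjusted p = 0.337) nor lineage-negative marrow (-0.35 ± 0.14, 0.169). Col1a2 read 36.2, 78.3 and 49.4 in the leukemias, 40.7, 38.3 and 36.8 in the pools and 31.2, 30.6 and 31.4 in the whole marrows. Leukemias 2 and 3 lay above every wild type array, and leukemia 1 lay below the pools. Col1a2 was at least 1.67-fold higher in leukemia than in whole marrow (0.74 ± 0.23, adjusted p = 0.046). That call was kept in 6 of 15 alternatives, over which the log2 difference ran from 0.44 to 1.0. It was lost without any 1 whole marrow or lineage-negative array, without leukemia 3 (0.0837), with 75th percentile centring (0.08) and with both groups fitted alone. Col1a2 did not pass against lineage-negative marrow (0.43 ± 0.23, adjusted p = 0.329). Lineage-negative against whole marrow gave 0.31 ± 0.23 for Col1a2 (0.345), with no overlap of the arrays, and 0.14 ± 0.14 for Col1a1 (0.482).

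Within an array, the log2 ratio of Col1a2 to Col1a1 was 0.09, 1.22 and 0.51 in the leukemias, -0.42, -0.15 and 0.06 in the lineage-negative pools and -0.35, -0.40 and -0.28 in the whole marrows. The leukemia values lay above all wild type values, by 0.09 against 0.06 at the nearest. This ratio was picked after the values were seen and is given as a description. An exact permutation test of 3 against 3 arrays cannot give a p under 0.1. It gave 0.1 for leukemia against each wild type group and 0.4 between the wild type groups, and no conclusion is drawn from it.

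Of 17 measured genes for fibrillar collagens and their processing, 3 were higher and 0 lower in leukemia than in whole marrow by limma, namely Col1a2, Crtap and P3h1, beside 14.6% and 9.93% of all genes (3 and 1 at an unadjusted p under 0.05, with a median log2 difference of -0.02). With 75th percentile centring the 3 became 1, as Col1a2 and P3h1 no longer passed. Crtap and P3h1 encode partners in a complex that hydroxylates a proline of collagen chains. Crtap read 96.6, 74.3 and 87.5 in the leukemias, 138.7, 148.5 and 133.6 in the lineage-negative pools and 59.4, 46.3 and 43.6 in the whole marrows, and was 1.74-fold higher in leukemia than in whole marrow (limma adjusted p = 0.00404). It was 1.64-fold lower in leukemia than in lineage-negative marrow (0.0166). Col3a1, the gene of type III collagen, stayed at 25.3 to 30.6 on all 9 arrays. Of 17 measured bone genes, 11 exceeded the olfactory 95th percentile on no array, including Sp7, at 16.7 to 22.7, and Dmp1, at 19.5 to 25.4, which mark osteoblasts and osteocytes. In leukemia against whole marrow, 1 bone gene was higher, Col1a2, and 0 were lower (2 at an unadjusted p under 0.05), beside the same shares of all genes. This direction depended on the settings: with 75th percentile centring 0 were higher and 2 lower, eBayes with trend and robust settings gave 2 lower, and 1 was lower without whole marrow 3 or leukemia 3. Of the bone genes, 0 were called against lineage-negative marrow by limma, where 1 had an unadjusted p under 0.05. Over all genes, 2.95% were called higher and 5.74% lower there.

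Mgp encodes matrix Gla protein, an inhibitor of mineral deposition in soft tissue. It read 53.0, 40.2 and 86.6 in the leukemias, 29.1, 26.5 and 26.0 in the lineage-negative pools and 32.7, 34.4 and 32.1 in the whole marrows. Every leukemia lay above every wild type array, and leukemia 3 was highest. Mgp was at least 1.72-fold higher in leukemia than in whole marrow (0.78 ± 0.23, limma adjusted p = 0.0386) and at least 2.09-fold higher than in lineage-negative marrow (1.07 ± 0.23, 0.0265). The pools lay below the whole marrows without passing the test (-0.28 ± 0.23, adjusted p = 0.398). The call against whole marrow was kept in 7 of 15 alternatives and was lost without any 1 whole marrow array (adjusted p up to 0.0976), without any 1 lineage-negative array or without leukemia 1, while that against lineage-negative marrow was kept in 11 of 15 and was lost without any 1 pool (up to 0.0828). In each of them Mgp stayed higher in leukemia, by 0.48 to 1.03 against whole marrow and by 0.76 to 1.32 against the pools.

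Sparc, which encodes the collagen-binding protein osteonectin, gave no call in any comparison. Its intensity was 42.1, 38.6 and 59.6 in the leukemias, 69.4, 60.6 and 39.7 in the lineage-negative pools and 64.8, 65.8 and 54.2 in the whole marrows. All 3 groups overlapped. The log2 differences were -0.42 ± 0.23 for leukemia against whole marrow (limma adjusted p = 0.237), -0.26 ± 0.23 for leukemia against lineage-negative marrow (0.594) and -0.16 ± 0.23 for lineage-negative against whole marrow (0.647). Sparc and Col1a1 correlated at r = 0.73 over the 9 arrays and at 0.77 after group means were subtracted, with pool 1 high and pool 3 low for both among the lineage-negative arrays.

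The list of other matrix proteins includes Mgp and Sparc. Of its 27 measured genes, 18 exceeded the olfactory 95th percentile on no array. In leukemia Mgp was the 1 call against whole marrow (median log2 difference of the list -0.07), beside 14.6% of all genes higher and 9.93% lower. Against lineage-negative marrow, Mgp and Fn1, the fibronectin gene, were the 2 calls, both higher in leukemia, beside 2.95% higher and 5.74% lower. Fn1 read 2081.7, 1544.7 and 1933.9 in the leukemias, 301.4, 98.3 and 226.1 in the lineage-negative pools and 1243.7, 1635.2 and 1342.0 in the whole marrows. It was 9.75-fold higher in leukemia than in the pools (limma adjusted p = 0.0017) and differed from whole marrow by 0.40 ± 0.36 (adjusted p = 0.504).

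Timp3 had the widest range of the 10 genes, 4.30 log2 units over the 9 arrays. It encodes a tissue inhibitor of metalloproteinases that binds to the matrix and also blocks ADAM17. Its intensity was 20.6, 22.1 and 23.3 in the leukemias, 408.0, 236.0 and 354.8 in the lineage-negative pools and 61.3, 48.9 and 51.1 in the whole marrows. The 3 groups were fully apart, and no leukemia array exceeded the olfactory 95th percentile. Timp3 was at least 14.8-fold lower in leukemia than in lineage-negative marrow (-3.88 ± 0.19, limma adjusted p = 8.54e-05). It was at least 2.43-fold lower in leukemia than in whole marrow (-1.28 ± 0.19, 0.00214). Lineage-negative marrow was 6.06-fold higher than whole marrow (2.60 ± 0.19, 6.16e-05). All 3 calls held under every alternative run.

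The upstream stretch of Timp3 is shown as that of the member with the widest differences, from RefSeq for GRCm38.p6 at chr10:86300162-86300411 on the plus strand, with capitals on a GC box that begins 15 bases before the start.
Timp3: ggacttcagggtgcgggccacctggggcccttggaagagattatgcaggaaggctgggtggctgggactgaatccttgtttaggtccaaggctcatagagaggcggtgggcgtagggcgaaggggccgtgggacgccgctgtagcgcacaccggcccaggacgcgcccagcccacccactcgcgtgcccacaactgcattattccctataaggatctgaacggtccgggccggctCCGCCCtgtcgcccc
It held 1 GC box, no TATAAA and no GGAAGT, on either strand.

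The other 3 TIMP genes did not share this pattern. Timp2 was lowest in lineage-negative marrow and highest in whole marrow, at 102.2, 77.6 and 72.2 in the leukemias, 59.3, 52.9 and 64.0 in the pools and 412.8, 411.9 and 336.9 in the whole marrows. It was 4.64-fold lower in leukemia than in whole marrow (limma adjusted p = 0.000305) and 6.58-fold lower in lineage-negative than in whole marrow (3.09e-05), and leukemia against the pools gave 0.50 ± 0.15 (0.071). Timp1 stayed at 16.7 to 20.2 and Timp4 at 23.7 to 28.5 over the 9 arrays, and neither passed any test. In leukemia, then, both Timp2 and Timp3 were lower than in whole marrow, while only Timp3 was lower than in the pools.

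Among the 16 metalloproteinases and inhibitors, Timp3 included, 2 were higher and 7 lower in leukemia than in whole marrow (median log2 difference -0.20). Over all genes, 14.6% were higher and 9.93% lower there. In leukemia against lineage-negative marrow, 5 were higher and 2 lower (0.22), beside 2.95% and 5.74%. In lineage-negative against whole marrow, 4 were higher and 7 lower (-0.19), beside 21.7% and 13.0%. Without whole marrow 1, the 7 lower in leukemia became 4. The 5 higher than in lineage-negative marrow became 3 without whole marrow 1, pool 3 or leukemia 1 or with both groups fitted alone, and the 2 lower became 1 without whole marrow 1, pool 1 or 2, or any 1 leukemia. The 4 higher in lineage-negative than in whole marrow became 2 without whole marrow 1 or 3 or pool 2 and with 75th percentile centring. Mmp14, a membrane-bound collagenase that activates other proteases, read 305.5, 228.3 and 146.9 in the leukemias, 56.0, 120.2 and 98.2 in the pools and 33.0, 27.1 and 28.9 in the whole marrows. It was at least 7.36-fold higher in leukemia than in whole marrow (limma adjusted p = 0.000881) and 2.49-fold higher than in the pools (0.0382, kept in 7 of 15 alternatives). The neutrophil granule enzymes Mmp8 and Mmp9 went the other way against whole marrow. Mmp9 was 3.94-fold lower there in leukemia (0.00423) and at least 17.5-fold higher than in the pools (0.000636). Mmp8 was 2.50-fold lower in leukemia than in whole marrow (0.0335, kept in 9 of 15) and 25.1-fold higher than in the pools (0.000566). Both also stand in the neutrophil marker list, whose sums are given above.

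**Figure D4:**
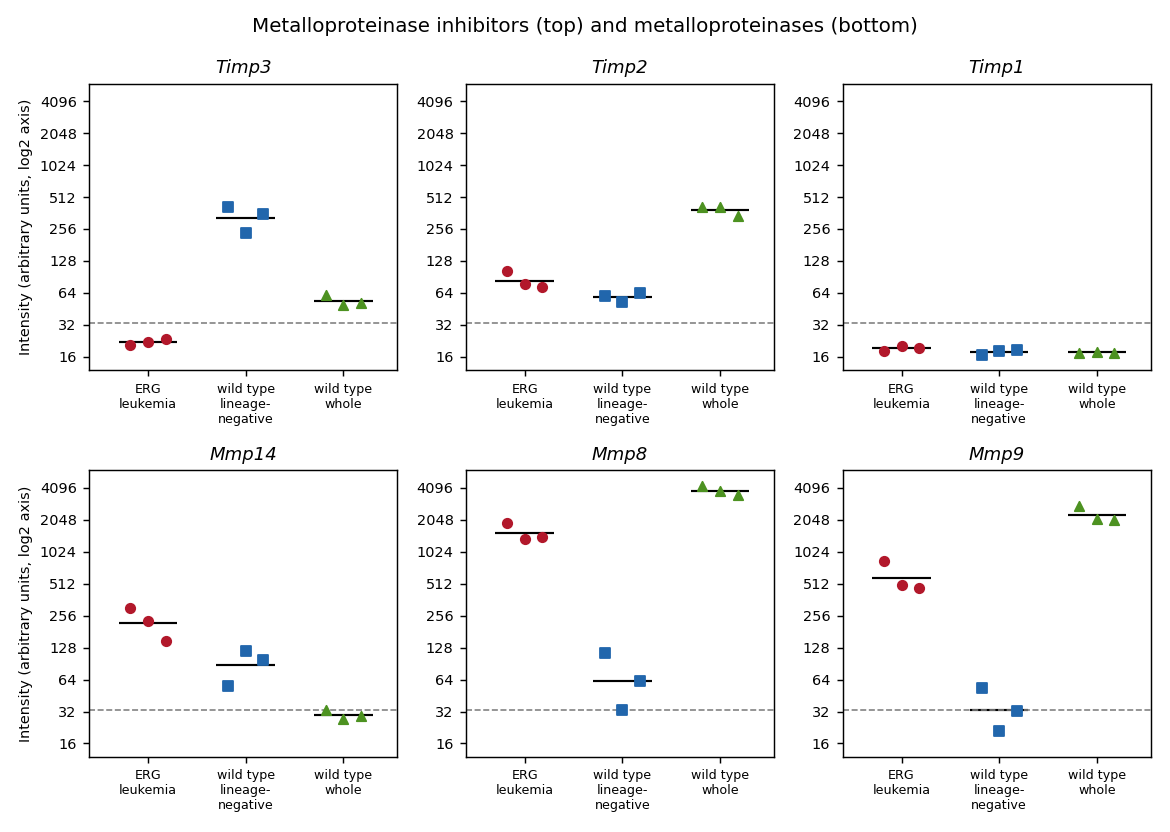
Intensity of Timp3, Timp2 and Timp1 (top) and of Mmp14, Mmp8 and Mmp9 (bottom) on each array, in arbitrary units on a log2 axis. Lines are group means of log2 values (n = 3) and the dashed line is the median of all probe sets, 33.4. Timp3 is highest in the lineage-negative pools, Timp2 in whole marrow and Mmp14 in leukemia, and Timp1 stays at or below 20.2 throughout.

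Timp3 and Angpt1 were both highest in the lineage-negative pools, and across the 9 arrays their log2 intensities correlated at r = 0.92, but at 0.34 once group means were subtracted. Summed markers of megakaryocytes and platelets and of stem and progenitor cells were also highest in the pools. Bright genes weigh most in such sums, as Ppbp at 5180.7 and Mpo at 2895.9 in pool 1. The summed intensity of 9 megakaryocyte and platelet markers was 832, 3067 and 1591 in the leukemias, 9990, 6039 and 8882 in the pools and 3668, 2528 and 3032 in the whole marrows, and all 9 exceeded the olfactory 95th percentile on every array. By limma, 1 of them was higher and 3 were lower in leukemia than in whole marrow, beside 14.6% and 9.93% of all genes. Against the pools, 0 were higher and 5 lower in leukemia (0 and 6 at an unadjusted p under 0.05), beside 2.95% and 5.74%. In the pools against whole marrow, 8 were higher and 0 lower (8 and 0 likewise), beside 21.7% and 13.0%. The sum of 11 stem and progenitor markers, Angpt1 left out, was 3285, 3092 and 3291 in the leukemias, 5896, 4065 and 5411 in the pools and 3837, 3909 and 3350 in the whole marrows. Of the 12 with Angpt1, 1 was higher and 3 lower in leukemia than in whole marrow by limma. Against the pools, 0 were higher and 6 lower in leukemia (2 and 9 at an unadjusted p under 0.05). In the pools against whole marrow, 6 were higher and 0 lower, and the shares of all genes are those just given. Slamf1 read higher in leukemia, at 404.8, 977.0 and 439.1, than in the pools, at 234.0, 161.1 and 311.8. Pool 2 was the lowest pool for both genes and for both sums. Among the leukemias the megakaryocyte sum did not follow Angpt1. Leukemia 1 had the highest Angpt1 (75.7) and the lowest sum (832), and leukemia 2 had the highest sum (3067) with Angpt1 at 32.9. The part of these cells in the levels of Timp3 and Angpt1 was not tested.

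**Figure D5:**
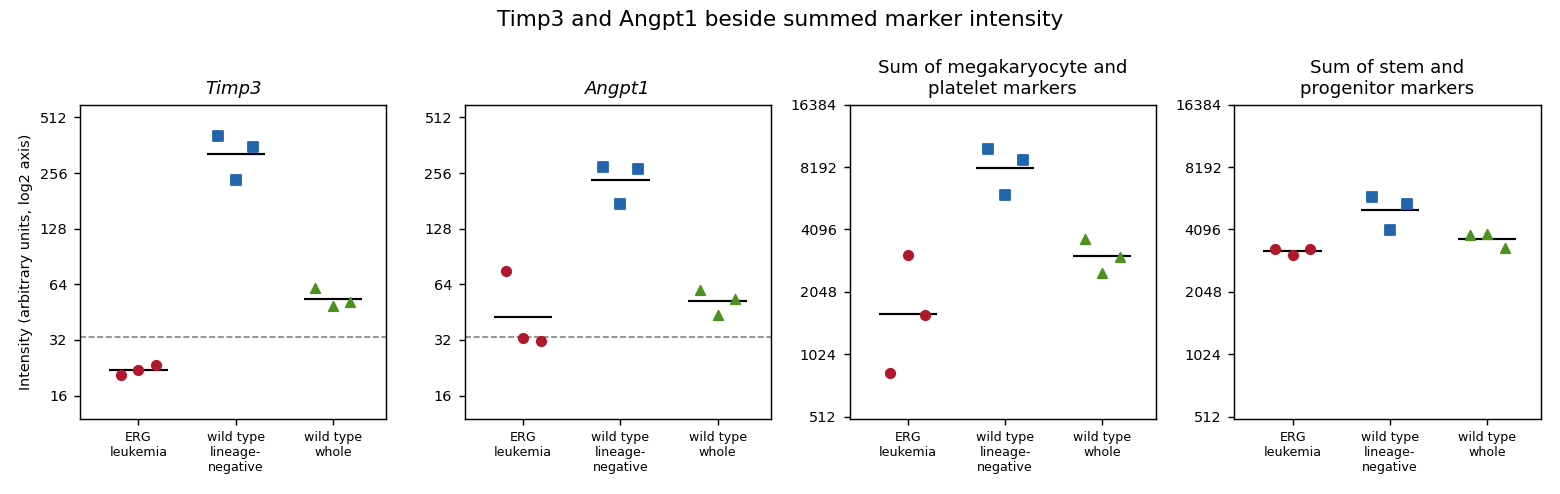
Intensity of Timp3 and Angpt1 and summed intensity of 9 megakaryocyte and platelet markers and 11 stem and progenitor markers on each array, in arbitrary units on log2 axes. Lines are group means of log2 values (n = 3). The lineage-negative pools are highest in all 4 panels, and the leukemias have Timp3 at 20.6 to 23.3 with marker sums of 832 to 3067 and 3092 to 3291.

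The leukemias differed among themselves more than the wild type arrays did for several members. The standard deviation of log2 intensity was largest in leukemia for 6 of the 10 members, beside 40.6% of all genes. Its median over the members was 0.246 in leukemia, 0.136 in the pools and 0.122 in whole marrow. Over all genes it was 0.127 in leukemia, 0.101 in the pools, which average 3 mice each, and 0.127 in whole marrow. Leukemia 1 was highest for Angpt1 (75.7) and leukemia 2 for Col1a2 (78.3). All other members were highest in leukemia 3. These were Mgp (86.6), Sparc (59.6), Cxcl12 (48.7) and Col1a1 (34.7), and the dim Cdh5 (24.0), Timp3 (23.3), Kitl (19.8) and Lepr (19.6). Leukemia 2 had the lowest Cxcl12, Lepr, Cdh5, Mgp, Sparc and Col1a1 of the 3. It also had the lowest macrophage marker sum, 1274 against 3044 and 3112, and the part of macrophages in that order was not tested.

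For each member, the genes with the most similar pattern were sought among 5424 genes with a group mean above the median of all probe sets and a log2 range of at least 1. The measure was Pearson's r of log2 intensity over 9 arrays, which share their groups, and r after subtraction of group means is given second. Timp3 was matched by Fhl1 (0.995 and 0.978) and Ehd3 (0.995 and 0.869), and Angpt1 by Abca2 (0.981 and 0.948) and Klhl22 (0.979 and 0.825). Cxcl12 was matched by Ap5b1 (0.987 and 0.948) and Ubl3 (0.982 and 0.916), and Lepr by Ccr1, a chemokine receptor gene of myeloid cells (0.983 and 0.942), and Gca (0.981 and 0.908). Cdh5 was nearest to Siglech, a lectin gene of plasmacytoid dendritic cells (0.987 and 0.945), and to Thbd, the thrombomodulin gene (0.982 and 0.951), and Kitl to Zc3h12a (0.983 and 0.871) and Plekhg1 (0.97 and 0.789). Mgp was nearest to Nr1h3, the liver X receptor alpha gene (0.97 and 0.99), and Adam23 (0.967 and 0.96), and Col1a2 to Zfp691 (0.978 and 0.981) and Clec4g (0.976 and 0.96). Col1a1 and Sparc had looser matches, Mier2 (0.889 and 0.8) and Gzmb (0.864 and 0.791) for Col1a1, and Zfp719 (0.829 and 0.818) and Mpp1 (0.807 and 0.851) for Sparc. With so many candidates and 9 arrays, high values of r are common, and these are descriptions alone.

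Over the whole arrays, medians ran from 32.3 to 34.4, and arrays correlated at r = 0.971 to 0.995 within a group and at 0.881 to 0.962 between groups. The Y-linked gene Eif2s3y read 15.8 to 18.1 in the leukemias, 237.3 to 299.9 in the pools, and 16.7, 370.6 and 17.1 in the whole marrows, so the arrays differ in sex composition. Without whole marrow 2, the whole marrow array with the high value, the log2 difference of leukemia from whole marrow was -0.71 for Cxcl12, -0.38 for Kitl and -0.49 for Cdh5. The calls of Kitl, Cdh5 and Timp3 were kept there, and those of Cxcl12, Col1a2 and Mgp were lost. Between the leukemias and the pools, sex composition and group cannot be told apart. The number of arrays, 3 to a group, limits the precision of every value.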

How the data were processed

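RNA of 9 marrow samples was measured on Affymetrix arrays, and the deposited intensity values, on a linear scale, were made by the authors with RMA in Partek, per the submitters' processing notes (versions not given in the sources used here). RMA corrects background, normalizes between arrays and merges the probes of each set, and differences of dim genes come out compressed. Of 28853 probe sets, 21789 had 1 gene symbol in the platform annotation, 1621 had several and 5443 were unnamed. For 999 genes with several probe sets the one with the highest mean was kept. Of the resulting 19938 genes, 19856 had their Entrez identifier in a RefSeq table.

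Intensities were log2-transformed with no further normalization or filter and fitted over all 9 arrays with lmFit, contrasts.fit and eBayes (no trend) of limma 3.58.1, run in R 4.3.3. There were 6 residual degrees of freedom and 2.62 from the prior. Two-sided tests were used, with Benjamini-Hochberg adjustment over all genes and a threshold of 0.05. Single mice and pools of 3 share 1 estimate of spread per gene, on which the p-values depend. The procedure was tested on simulated data. Plots used matplotlib 3.10.9 (Python 3.11.15).

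Wild type replicate numbers follow the titles, and leukemias were numbered in accession order. The labels name no pairing between the wild type groups, so same-numbered samples were not paired in the main fit. The members and the gene lists were chosen with earlier results of these data known. The named genes were all members, the 3 genes of a list with the largest difference past the threshold in a comparison, the receptors Cxcr4, Kit and Tek, and 2 genes most like each member. TIMP genes and defining cell markers outside this rule were named after their values were seen. Not every gene the rule allows is named. The alternatives were 75th percentile centring, cyclic loess, bright genes only, eBayes with trend and robust settings, the compared groups alone, the mean of a gene's probe sets, each array left out, and, within wild type, a block on replicate number. No genome and no protein sequences were used here. Promoter stretches came from RefSeq for GRCm38.p6 and were cut at the start site.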

Additional observations from a re-analysis of the deposited data

How the results depend on the processing

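Calls of Timp3 in all 3 comparisons, of Angpt1 in both of its comparisons, and of Cxcl12, Kitl, Lepr and Cdh5 in lineage-negative against whole marrow held under every alternative that could give them a value. "Bright genes only" gave none for Kitl, Lepr and Cdh5. Other calls of leukemia rested on small margins. Members higher in leukemia than in whole marrow, 2 as reported, numbered 1 with 75th percentile centring, 0 with the compared groups alone and 0 to 2 with an array left out. Members lower there, 4 as reported, numbered 2 with cyclic loess, 2 with bright genes only, 1 with the compared groups alone and 1 to 4 with an array left out. Members higher in leukemia than in lineage-negative marrow, 1 as reported, numbered 0 with the compared groups alone and 0 to 1 with an array left out. Members lower in lineage-negative than in whole marrow, 4 as reported, numbered 1 with bright genes only, since that setting leaves Kitl, Lepr and Cdh5 out. The cause of the other changes was not tested. The only reversals were of differences that passed no test, both in lineage-negative against whole marrow: Col1a1 ran from -0.02 (without pool 1) to 0.29, and Sparc from -0.32 to 0.08 (without pool 3). With 75th percentile centring the median of all genes moved to -0.105 for leukemia against whole marrow (-0.022 as deposited), to -0.159 for lineage-negative against whole marrow (-0.035) and to 0.048 for leukemia against lineage-negative marrow (0.007). Deviations of same-numbered wild type samples correlated at r of 0.312, -0.009 and -0.009, beside -0.203 to 0.147 for differently numbered ones. Only the samples numbered 1 thus lay above that range. With the replicate number as a block, 3 members were higher and 4 lower in lineage-negative than in whole marrow, Col1a2 being the added one (0.31, limma adjusted p = 0.033), which also passed with the compared groups alone (0.0146), as did Mgp (-0.28, 0.0287). Dim signal limits Kitl, Lepr and Cdh5 in all groups and Timp3 in leukemia.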

Other observations

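Markers of other cells that a femur flush could hold were counted by limma at an adjusted p of 0.05. Over all genes, 14.6% were higher and 9.93% lower in leukemia than in whole marrow, and 2.95% and 5.74% than in lineage-negative marrow. In lineage-negative against whole marrow, the shares were 21.7% and 13.0%. Of 9 osteoclast markers, 0 were higher and 1 was lower in leukemia than in whole marrow (Nfatc1, log2 difference -1.30 ± 0.22, adjusted p = 0.00396), and 0 were called against lineage-negative marrow, where 1 had an unadjusted p under 0.05. In lineage-negative against whole marrow, 0 were higher and 3 lower, namely Nfatc1 (-1.24 ± 0.22, adjusted p = 0.00249), Atp6v0d2 (-0.81 ± 0.24, 0.0304) and Ctsk (-0.67 ± 0.16, 0.0114), beside 13.0% of all genes lower. Of 14 markers of smooth muscle, skeletal muscle and cartilage, 1 was called in each comparison, and it was Acta2, the smooth muscle actin gene, lower in leukemia than in whole marrow (-1.31 ± 0.21, adjusted p = 0.00326), higher than in lineage-negative marrow (0.82 ± 0.21, 0.0499) and lower in lineage-negative than in whole marrow (-2.12 ± 0.21, 0.000167). Of 7 measured adipocyte markers, 1 was higher and 1 lower in leukemia than in whole marrow. Pparg, a transcription factor of adipocytes and macrophages, was higher (1.54 ± 0.45, adjusted p = 0.0359), and Retn, the resistin gene, was lower (-0.43 ± 0.12, 0.0276). Pparg was also higher in leukemia than in lineage-negative marrow (2.26 ± 0.45, 0.0187), and Retn was lower in lineage-negative than in whole marrow (-0.64 ± 0.12, 0.00286), where the median of the 7 was -0.64. Adipoq, the adipocyte hormone gene, lay at 17.3 to 26.9 on all 9 arrays.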
